A study of Homo sapiens with 6 samples.

Results

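Protein synthesis needs a set of factors that load ribosomes onto mRNA, move them along it and release the finished chain. The genes described here are the translation initiation, elongation and termination factors of SK-Hep1 cells, an established human liver cancer line, together with regulators that carry the same name stems. They were chosen by symbol: every gene whose name began with EIF1 to EIF6, EEF1 or EEF2, plus the release factors ETF1 and GSPT1 and the poly(A)-binding proteins PABPC1 and PABPC4. This gave 65 genes of 11593 listed, carried by 264 transcript rows of 28768. The rule reads symbols only and no measured value, although it was set with earlier results of these data known.

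The study asked which mRNAs are associated with SNHG10, a long noncoding RNA, by ChIRP, in which crosslinked RNA is captured with biotinylated DNA probes complementary to a chosen transcript. Of the 6 libraries, 3 were labelled with probes against SNHG10 and 3 with control probes against LacZ, a bacterial sequence. All 6 came from the same unmodified cell line, and the labels name no genotype or treatment that differs between the sets. The series design speaks of retrieved RNA, whereas the labelled protocol describes total RNA with no pull-down step. Which of these was sequenced cannot be settled here, so each difference is one between probe sets and not a measure of binding. The labels do not say that replicates were separate cultures, so the error behind each p-value is that of library against library and could be purely technical. Values are FPKM, fragment counts scaled by transcript length and by library total, which can be compared between genes. Transcripts were summed per gene. Read depth is unknown, since FPKM values carry no counts.

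Eukaryotic initiation begins when eIF2 brings the initiator tRNA to the small ribosomal subunit together with eIF1, eIF1A, eIF5 and the large eIF3 complex. The mRNA is recruited through its cap by eIF4E, the scaffold eIF4G, the helicase eIF4A and poly(A)-binding protein. In elongation, eEF1A delivers aminoacyl-tRNAs, the eEF1B complex recharges it with GTP, and eEF2 moves the ribosome forward, while release factors end the chain.

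Many mRNAs of the translation machinery begin with a terminal oligopyrimidine (TOP) tract, a C at the transcription start followed by a run of C and T, through which mTOR signalling is known to control their translation. The start sequences were read to see which of the factors carry one and whether those factors differ in level. RefSeq start windows (build GRCh38.p14) were matched by symbol for 50 of the 65 genes. A tract was scored where the annotated first base was C and at least the next 4 bases were each C or T, in any annotated start of the gene and only on the transcribed strand. Each line gives 10 bases before the start and 20 from it, 5′ to 3′, with the scored tract in capitals. The first 7 genes carry a tract, and the last 5, shown for contrast because their values are described in full, do not.
EEF1A1 (chr6:73521013-73521042, minus strand): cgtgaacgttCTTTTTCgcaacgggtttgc
EEF2 (chr19:3985444-3985473, minus strand): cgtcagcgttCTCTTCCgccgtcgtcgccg
EEF1B2 (chr2:206159885-206159914, plus strand): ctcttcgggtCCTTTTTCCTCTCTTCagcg
EIF4B (chr12:53006446-53006475, plus strand): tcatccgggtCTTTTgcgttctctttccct
EIF3F (chr11:7987327-7987356, plus strand): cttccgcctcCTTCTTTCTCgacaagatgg
EIF3K (chr19:38619178-38619207, plus strand): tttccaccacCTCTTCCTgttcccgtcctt
EIF2S3 (chrX:24054946-24054975, plus strand): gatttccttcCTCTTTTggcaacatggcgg
EEF1E1 (chr6:8102529-8102558, minus strand): tgcaggtctcgcgtctgccaggagctacgg
EEF1G (chr11:62573872-62573901, minus strand): cgggcggcttactttgcggcagcgccgaga
EEF2K (chr16:22206268-22206297, plus strand): gcccgcttctgctcaacctagaccagcccc
EIF1AX (chrX:20141819-20141848, minus strand): gagtcgcggcgccatttgctgccgccgagc
EIF4A1 (chr17:7572815-7572844, plus strand): ggcactccgccctagtttctaaggatcatg

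A tract was found for 12 of the 50 matched factors (24.0%), against 692 of 9063 matched genes in the files (7.64%) and 1429 of all 35116 start windows (4.07%). The other 5 factors with one were EIF2A, EIF2D, EIF3D, EIF3M and EIF4A2. Factors without a matched window were not scored, so they may or may not carry a tract. PABPC1, PABPC4, EEF1D, EIF3E, EIF3H and EIF3L were among them. The factors with a tract had a median level of 110 FPKM (109.9 before rounding), from 11.7 for EIF2A to 1872 for EEF1A1. The 38 without had a median of 17.5 FPKM, and 8 of them averaged at least 100 FPKM, compared with 7 of the 12. Among all listed genes the corresponding medians were 9.94 and 6.60 FPKM. The median log2 difference between probe sets, SNHG10 minus LacZ, was -0.16 with a tract and -0.16 without. A match is a description of these letters only, and the start used in these cells was not measured.

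**Figure D1:**
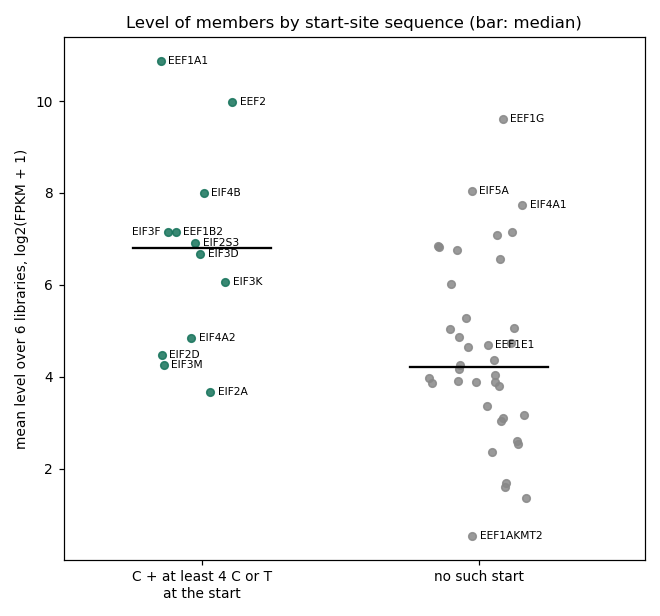
Mean level over 6 libraries, log2(FPKM + 1), of the 50 factors with a RefSeq start window, divided by whether the first base is C followed by at least 4 bases of C or T; each point is a gene and bars are medians. The factors with a tract have the higher median, but both columns span most of the range, with EEF1G and EIF5A high and without a tract.

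The factors were abundant and very uneven in level. Their means over the 6 libraries ran from 0.454 to 1872 FPKM with a median of 31.9 FPKM, against 6.53 FPKM for all listed genes. Of the 65, 16 averaged at least 100 FPKM and 13 were below 10 FPKM. Genes grouped as elongation factors, EEF1E1 among them, held 59.4% of the summed level of all members, and EEF1A1, EEF2 and EEF1G alone held 51.3%. The factors involved in cap recognition, mRNA unwinding and poly(A) binding held 16.3%, and the eIF3 subunits 13.1%. Together the 65 genes made up 2.66%, 2.50% and 2.67% of all FPKM in the SNHG10 libraries (replicates 1 to 3, the order used throughout) and 2.69%, 2.75% and 2.48% in the LacZ libraries. The range of the SNHG10 libraries lay inside that of the LacZ libraries.

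No factor passed the test between probe sets. With limma on log2(FPKM + 1), 64 of the 65 factors had values high enough to test, and 0 were higher (background over all 10304 genes tested, 0.0%) and 0 lower (0.0%) at an adjusted p under 0.05. The smallest adjusted p among the factors was 0.864. An unadjusted p under 0.05 was reached by 1 factor, EEF1E1, which is 1.56% of those tested, against 5.42% of all genes (2.1% higher and 3.32% lower with SNHG10 probes). The 3 libraries of one set lay wholly outside those of the other for 5 factors (7.81%), 2 of them higher with SNHG10 probes and 3 lower, against 11.4% of all genes (4.22% higher and 7.21% lower). A difference of at least 2-fold on this scale was seen for EEF1E1 and EIF3E only, 3.13% of the factors against 5.05% of all genes.

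The median log2 difference, SNHG10 minus LacZ, was -0.15 over the factors and -0.05 over all genes tested. It was positive for 20 factors and negative for 44, so that 31.3% were positive against 43.3% of all genes. This split depended on scaling. Median-ratio scaling, which brought the median of all genes to -0.0027, gave 29 positive and 35 negative factors (45.3% positive, against 49.7% of all genes) with a median of -0.09, and quantile normalization gave 26 and 38. Library replicate 2 of the SNHG10 set held the lowest value of the 6 for 23 of the 64 factors (35.9%), whereas it was lowest for 20.1% of all genes tested. LacZ replicate 2 was lowest for 3 of the factors. The part of these libraries in the direction of the split was not tested.

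**Figure D2:**
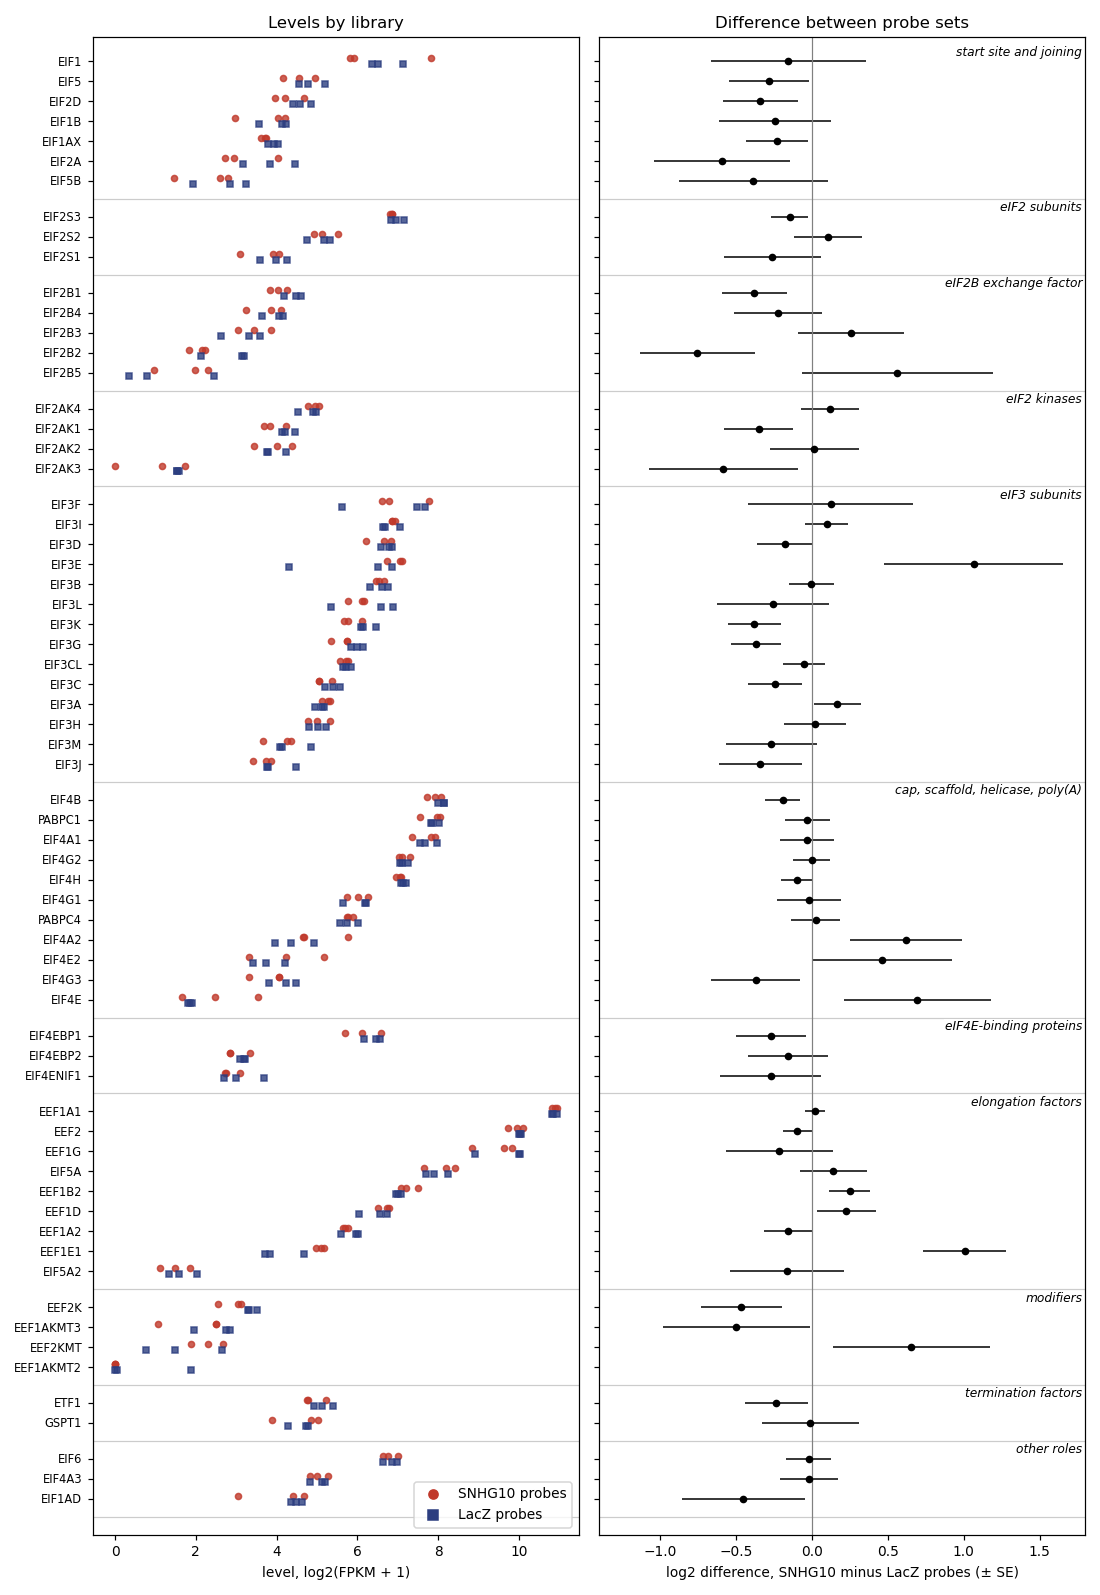
Left, level of each factor in each library, log2(FPKM + 1), red circles for SNHG10 and blue squares for LacZ probes; right, log2 difference (SNHG10 minus LacZ) with its limma standard error, arranged by role. Red and blue points overlap for all but 5 of the 64 tested factors, and EEF1E1 (1.01) and EIF3E (1.07) lie farthest to the right; EEF1AKMT2 was not tested.

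The smallest p of all tested members belonged to EEF1E1, also known as AIMP3, which was grouped with the elongation factors by its name. It is a small protein of the multi-tRNA synthetase complex that shares its name and a fold with the eEF1 subunits. The gene lies on the minus strand of chromosome 6 (hg19, 8079628 to 8102811; ENSG00000124802.11_3). Its level was 35.0, 30.4 and 33.1 FPKM with SNHG10 probes and 24.4, 13.3 and 12.02 FPKM with LacZ probes. The sets did not overlap, and LacZ replicate 1 lay nearest to the SNHG10 libraries. The means were 32.8 ± 2.29 and 16.6 ± 6.79 FPKM (SD, n = 3 each). The log2 difference was 1.01 ± 0.27 (SE), with an unadjusted limma p of 0.00650 and an adjusted p of 0.864. The two-sided exact permutation p was 0.1, the smallest that 3 libraries against 3 can give. Leaving out 1 library at a time gave log2 differences from 0.82 to 1.31.

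EEF1A1, which carries aminoacyl-tRNA to the ribosome, was the most abundant factor and ranked 9 among all listed genes. It measured 1955, 1906 and 1792 FPKM with SNHG10 probes and 1789, 1959 and 1831 FPKM with LacZ probes. These libraries were interleaved and differed little among themselves (log2 difference 0.02 ± 0.07 SE, adjusted p = 0.975). EEF1A1 has many processed copies in the genome, and how reads shared with them were assigned is not given in the sources used here. EEF1A2, its paralog best known from muscle and neurons and from some cancers, was at 50.8, 53.3 and 49.2 FPKM against 63.5, 47.7 and 61.3 FPKM. EEF2, the translocase, stood at 851, 1090 and 990 FPKM against 1040, 1052 and 1026 FPKM, with SNHG10 replicate 1 the lowest.

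The subunits of the eEF1B exchange complex did not move together. EEF1B2, the alpha subunit that catalyses the exchange (chromosome 2, 207024309 to 207027652 in hg19, plus strand), was at 134.2, 181 and 147 FPKM with SNHG10 probes and 123, 134.1 and 128 FPKM with LacZ probes. SNHG10 replicate 1 and LacZ replicate 2 almost met, so the sets were only just apart (log2 difference 0.25 ± 0.14 SE, adjusted p = 0.909). EEF1D, the delta subunit, was at 108, 90.6 and 105 FPKM against 93.8, 105 and 64.8 FPKM. EEF1G, the structural gamma subunit, chosen for description after its values were seen, fell into high and low libraries within each set. It measured 794, 454 and 907 FPKM with SNHG10 probes and 1026, 1040 and 478 FPKM with LacZ probes, so that SNHG10 replicate 2 and LacZ replicate 3 were low (log2 difference -0.21 ± 0.35 SE, adjusted p = 0.953). The difference became 0.09 without SNHG10 replicate 2 and -0.58 without LacZ replicate 3. Summed, the 3 subunits gave 1037, 726 and 1159 FPKM against 1243, 1279 and 671 FPKM (two-sided exact permutation p = 0.6).

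EIF5A, named as an initiation factor but known to help the ribosome through difficult peptide bonds, was at 342, 199 and 294 FPKM with SNHG10 probes and 238, 206 and 303 FPKM with LacZ probes. Its paralog EIF5A2 was near the detection filter, between 1.18 and 3.09 FPKM in all 6 libraries. Neither separated the probe sets. Over the 9 genes grouped as elongation factors, EEF1E1 included, 5 log2 differences were positive and 4 negative, with a median of 0.02.

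Modifiers of the elongation factors were among the lowest members. EEF2K, the kinase that inactivates eEF2 (chromosome 16, 22217603 to 22300053, plus strand), was at 7.75, 7.25 and 4.90 FPKM with SNHG10 probes and 8.89, 10.4 and 8.87 FPKM with LacZ probes. The LacZ libraries all lay above the SNHG10 libraries (log2 difference -0.46 ± 0.27 SE, adjusted p = 0.928). The methyltransferases EEF2KMT and EEF1AKMT3 stayed under 7 FPKM and overlapped between the sets. EEF1AKMT2 was listed at 0 in 4 libraries, at 0.0359 FPKM in LacZ replicate 2 and at 2.69 FPKM in LacZ replicate 3, and was the only member too low to test.

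Genes grouped under start site selection and subunit joining all had negative differences, though none passed the test. The group also holds EIF2A and EIF2D, which are known for handling tRNA. All 7 (EIF1, EIF1AX, EIF1B, EIF2A, EIF2D, EIF5 and EIF5B) were on the LacZ side of 0 under the main, median-ratio and quantile scalings, with a median log2 difference of -0.28 in the main fit. Their adjusted p values lay between 0.928 and 0.974, and over all genes tested 56.7% of differences were negative. EIF1AX, the X-linked copy of eIF1A, was the only one whose libraries did not overlap. It measured 12.2, 11.2 and 12.3 FPKM with SNHG10 probes and 14.2, 12.7 and 15.4 FPKM with LacZ probes. EIF2D, which can bring tRNA to the ribosome independently of eIF2, was at 17.4, 24.7 and 14.4 FPKM against 23.1, 28.0 and 20.1 FPKM (log2 difference -0.34 ± 0.25 SE, adjusted p = 0.928). The 2 sets overlapped through SNHG10 replicate 2.

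EIF1, which guards the accuracy of start codon choice, was at 224, 59.1 and 55.1 FPKM with SNHG10 probes and 139, 90.0 and 81.6 FPKM with LacZ probes. SNHG10 replicate 1 was far above its own set, and the log2 difference of -0.16 ± 0.51 (SE, adjusted p = 0.974) became -0.81 without it. It turned positive when any of 3 other libraries was left out: SNHG10 replicate 2 (0.15), SNHG10 replicate 3 (0.20) and LacZ replicate 1 (0.07). EIF2A, a tRNA-binding factor distinct from the eIF2 complex, was at 15.4, 5.58 and 6.72 FPKM against 21.1, 13.4 and 7.98 FPKM, again with overlap.

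Among the eIF2 subunits the gamma subunit EIF2S3, which binds GTP and the initiator tRNA, was the most abundant. It measured 114.3, 114.4 and 110.03 FPKM with SNHG10 probes and 142, 113 and 122 FPKM with LacZ probes (log2 difference -0.15 ± 0.12 SE, adjusted p = 0.928). LacZ replicate 2 lay below 2 of the SNHG10 libraries. EIF2S1, the alpha subunit whose phosphorylation slows initiation in stress, was at 14.1, 7.58 and 15.6 FPKM against 11.1, 18.3 and 14.8 FPKM. EIF2S2, the beta subunit, was at 29.5, 33.9 and 44.9 FPKM against 26.1, 38.9 and 35.2 FPKM. Both overlapped widely.

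The exchange factor eIF2B, which recharges eIF2 and is blocked by phosphorylated eIF2, had 5 subunits listed, between 0.267 and 23.1 FPKM over all libraries. EIF2B2, the beta subunit, was at 3.42, 2.54 and 3.67 FPKM with SNHG10 probes and 7.81, 3.35 and 8.14 FPKM with LacZ probes (log2 difference -0.75 ± 0.38 SE, adjusted p = 0.885). LacZ replicate 2 lay among the SNHG10 libraries while the other two LacZ libraries were clearly higher. EIF2B1, the alpha subunit, was at 15.4, 18.0 and 13.3 FPKM against 17.2, 23.1 and 21.3 FPKM (log2 difference -0.38 ± 0.21 SE, adjusted p = 0.920). EIF2B5, the catalytic epsilon subunit, ranged from 0.267 to 4.49 FPKM and had both extremes in the LacZ set. Its level rests on 1 listed row (chromosome 3, 183853153 to 183855167 in hg19), and whether this row covers the whole gene was not checked. Of the 5 subunits, 2 had positive and 3 negative differences.

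The 4 kinases that phosphorylate eIF2 each sense a different stress. EIF2AK1, the heme-regulated kinase, was at 17.8, 11.9 and 13.4 FPKM with SNHG10 probes and 16.7, 17.5 and 21.1 FPKM with LacZ probes (log2 difference -0.35 ± 0.23 SE, adjusted p = 0.928). EIF2AK4 (GCN2), which senses uncharged tRNA, was the most abundant at 32.0, 30.04 and 26.5 FPKM against 22.1, 29.1 and 30.6 FPKM (log2 difference 0.12 ± 0.19 SE, adjusted p = 0.948). EIF2AK2 (PKR), the sensor of double-stranded RNA, spanned 9.88 to 19.8 FPKM, and both ends of that range were SNHG10 libraries. EIF2AK3 (PERK), the kinase of the endoplasmic reticulum, was the lowest at 1.26, 0 and 2.32 FPKM against 2.01, 1.90 and 1.88 FPKM. No kinase separated the sets.

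The eIF3 complex, which holds the small subunit and mRNA together, contributed 14 genes, 5 with positive and 9 with negative differences (7 and 7 under median-ratio scaling, 6 and 8 under quantile normalization). EIF3G, an RNA-binding subunit (chromosome 19, 10225693 to 10230578, minus strand), had the smallest p of the complex. It measured 52.8, 39.99 and 53.0 FPKM with SNHG10 probes and 56.5, 62.4 and 68.9 FPKM with LacZ probes. The sets did not overlap, though SNHG10 replicate 3 and LacZ replicate 1 were close (log2 difference -0.37 ± 0.17 SE, adjusted p = 0.885). EIF3K, a peripheral subunit, was at 53.3, 68.6 and 50.05 FPKM against 67.2, 86.5 and 69.9 FPKM, with overlap at a single pair of libraries.

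EIF3E and EIF3F carried the widest spread of the complex, and LacZ replicate 3 was the lowest library for both. EIF3E, a subunit also known as INT6 and chosen for description after its values were seen, was at 137, 105 and 132 FPKM with SNHG10 probes and 115, 90.4 and 18.9 FPKM with LacZ probes. The log2 difference of 1.07 ± 0.59 (SE, adjusted p = 0.912) became 0.28 without LacZ replicate 3. EIF3F, which also has deubiquitinase activity, was at 109, 97.1 and 216 FPKM against 202, 178 and 48.5 FPKM (log2 difference 0.12 ± 0.54 SE, adjusted p = 0.982). Without LacZ replicate 3 it turned to -0.52, and without SNHG10 replicate 3 to -0.23. EIF3L was likewise spread within the LacZ set, at 53.1, 68.3 and 71.0 FPKM against 39.8, 95.0 and 117 FPKM.

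Other subunits were steadier. EIF3B, a core subunit, stayed between 78.0 and 106 FPKM (106.5 before rounding), and EIF3I between 97.9 and 131 FPKM. EIF3A, the largest scaffold subunit, stayed between 29.8 and 39.2 FPKM. EIF3C and EIF3CL are near-identical copies between which reads may have been divided. Together they gave 83.8, 78.8 and 93.5 FPKM with SNHG10 probes and 85.3, 98.6 and 97.7 FPKM with LacZ probes, which overlapped (two-sided exact permutation p = 0.2).

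**Figure D3:**
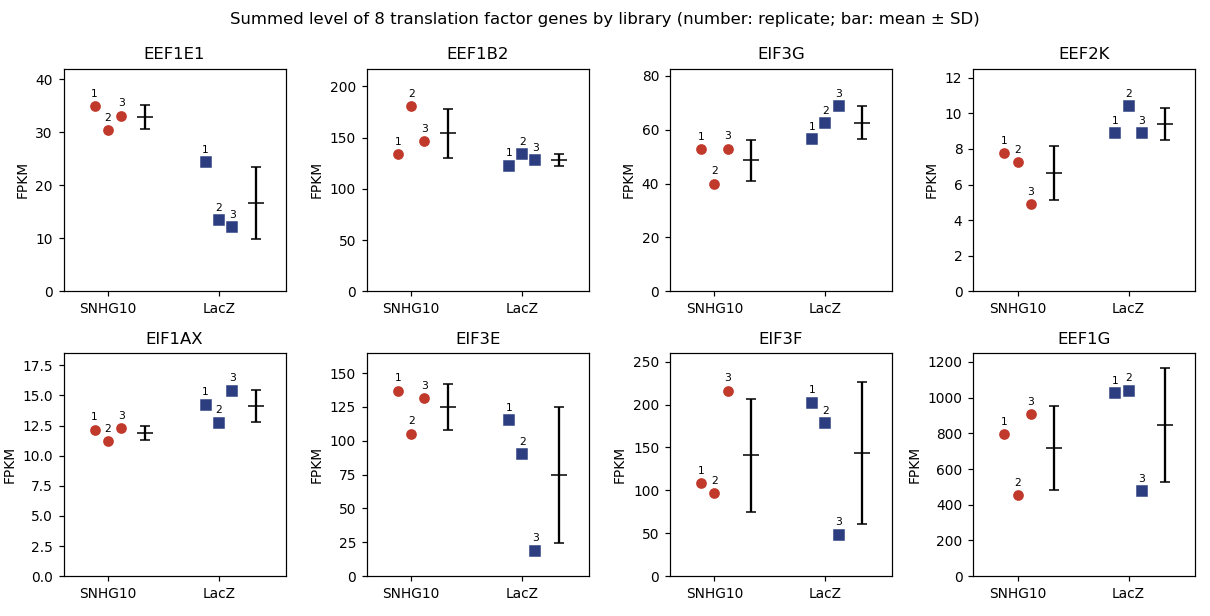
Level in each of the 6 libraries (FPKM, axes starting at 0) for 8 factors, with SNHG10 and LacZ libraries side by side, points for libraries and bars for means. EEF1E1 separates the sets (30.4 to 35.0 against 12.02 to 24.4 FPKM), whereas EIF3E and EIF3F show LacZ replicate 3 far below its own set.

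Cap-binding and mRNA-recruiting factors showed no shared direction. Of the 11 genes, 4 differences were positive and 7 negative, which became 8 and 3 under median-ratio scaling and 6 and 5 under quantile normalization. EIF4A2, a paralog of the helicase EIF4A1, had the smallest p, at 53.9, 24.4 and 24.2 FPKM with SNHG10 probes and 29.3, 19.6 and 14.6 FPKM with LacZ probes (log2 difference 0.62 ± 0.37 SE, adjusted p = 0.928). Only LacZ replicate 1 overlapped the SNHG10 libraries. EIF4A1 itself was at 163, 240 and 227 FPKM against 249, 185 and 205 FPKM. EIF4B, which stimulates the helicase and was the most abundant of this group, was at 268, 240 and 209 FPKM against 254, 282 and 281 FPKM (log2 difference -0.19 ± 0.12 SE, adjusted p = 0.928).

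EIF4E, the cap-binding protein itself, was present at low RNA levels of 4.55, 10.6 and 2.14 FPKM with SNHG10 probes and 2.64, 2.72 and 2.51 FPKM with LacZ probes. The 3 LacZ libraries were tight while the SNHG10 libraries lay on both sides of them. EIF4G2, a relative of the scaffold that cannot bind EIF4E, was steady between 129 and 156 FPKM, and EIF4G1, the main scaffold, ranged from 49.1 to 75.4 FPKM. PABPC1, the main cytoplasmic poly(A)-binding protein, was at 187, 251 and 265 FPKM against 230, 258 and 223 FPKM, and PABPC4 lay between 46.5 and 64.2 FPKM. EIF4H, a cofactor of the helicase, stayed between 124 and 145 FPKM. None of these separated the sets.

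The 3 eIF4E-binding proteins all had negative differences, also under median-ratio and quantile scaling, without passing the test. EIF4EBP1, the repressor that mTOR phosphorylates, was at 51.0, 68.4 and 94.3 FPKM with SNHG10 probes and 87.4, 93.2 and 71.1 FPKM with LacZ probes (log2 difference -0.27 ± 0.23 SE, adjusted p = 0.928). EIF4EBP2 and EIF4ENIF1, the carrier that takes eIF4E into the nucleus, were below 12 FPKM everywhere.

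Termination factors overlapped between the sets. ETF1 (eRF1), which reads stop codons, was at 26.0, 26.5 and 36.6 FPKM with SNHG10 probes and 34.0, 29.5 and 41.4 FPKM with LacZ probes (log2 difference -0.23 ± 0.21 SE, adjusted p = 0.928). GSPT1 (eRF3a), its GTPase partner, was at 27.7, 13.8 and 31.6 FPKM against 18.4, 25.7 and 26.4 FPKM. Among genes matched by name with other or additional roles, EIF6, which keeps the large subunit from joining too early, was at 97.5, 108 and 128 FPKM against 125, 115 and 97.9 FPKM (log2 difference -0.02 ± 0.15 SE, adjusted p = 0.993). EIF1AD was at 7.30, 24.5 and 20.3 FPKM against 21.4, 19.6 and 23.8 FPKM, and the low SNHG10 replicate 1 set the sign of its difference (-0.45 ± 0.40 SE, adjusted p = 0.928; 0.05 without that library). EIF4A3, a helicase of the exon junction complex, stayed between 27.4 and 37.7 FPKM (27.35 at the lowest).

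The spread between libraries of one probe set had a median SD of 0.30 over the factors on the log2(FPKM + 1) scale, against 0.40 over all genes tested, whose levels were lower. Among tested factors above 0 in every library, 29 still differed by at least 2-fold between their highest and lowest library, and 21 by less than 1.5-fold. EIF2AK3 and EEF1AKMT2, each listed at 0 somewhere, have no such ratio.

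Transcripts of the same factor varied far more than their sum. Of the 65 genes, 50 had several transcript rows and 15 had only 1. In 47 of the 50 the transcript rows had a larger median within-set SD than the gene sum, 0.99 against 0.28 in the median. Over all 6599 genes with several rows, at least 1 of them tested, the medians were 0.78 and 0.41, with rows the more variable in 5034. The transcript with the highest value was the same in all 6 libraries for only 14 of the 50 factors, and 12 factors had 3 or more different leading transcripts. Of the 264 rows, 118 were above 0 in every library and 146 were listed at 0 in at least 1 library.

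EIF4B and EEF1B2, chosen for description after their rows were seen, show the pattern. The row EIF4B-201 was at 43.2, 175 and 172 FPKM with SNHG10 probes and 186, 183 and 25.6 FPKM with LacZ probes. EIF4B-203 was at 87.0, 37.2 and 15.7 FPKM against 40.9, 85.0 and 253 FPKM, highest where EIF4B-201 was lowest. In EEF1B2 the row EEF1B2-201 was at 12.6, 120 and 89.0 FPKM against 30.1, 55.1 and 0 FPKM. EEF1B2-202 was at 78.9, 11.7 and 43.9 FPKM against 39.5, 26.8 and 89.4 FPKM, again highest where the other was lowest among the LacZ libraries. In contrast EEF1A1-203 led its gene in all 6 libraries at 1304 to 1595 FPKM, and EEF2-201 did so at 844 to 1084 FPKM. Reads shared by overlapping transcripts can be assigned only by estimate, and the part of this in these swings was not tested.

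**Figure D4:**
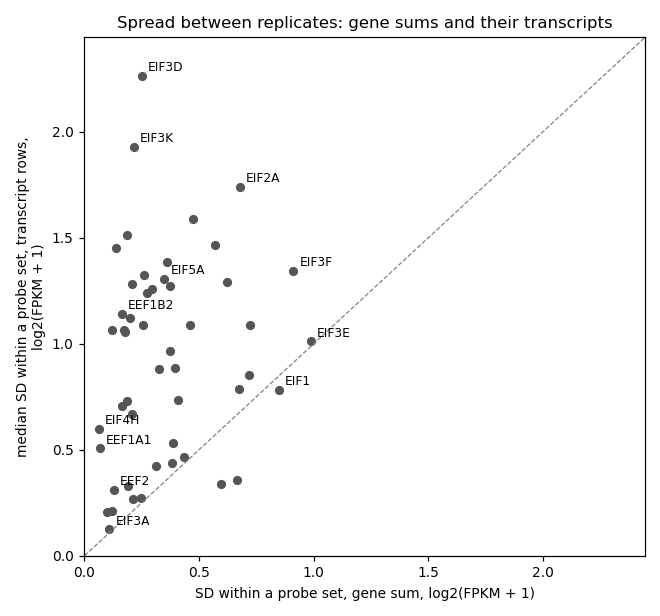
Median within-set SD of a factor's transcript rows against the within-set SD of its gene sum, both on the log2(FPKM + 1) scale, for the 50 factors with several rows; the dashed line marks equality. Rows varied more than the sum in 47 of the 50, EIF3D and EIF3K lie highest, and EIF1 lies below the line.

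Tested as single rows, no member transcript passed. Of 179 member rows tested, 0 were higher (background over 16618 rows, 0.0481%) and 0 lower (0.0421%) at an adjusted p under 0.05 by limma. At an unadjusted p under 0.05 there were 13 (7.26%, against 5.66% of all rows), 6 higher (2.59% of all rows) and 7 lower (3.06%). The sets did not overlap in 17 (9.50%, against 10.5%), 8 of them higher (4.48% of all rows) and 9 lower (6.06%). Of the 179 differences 80 were positive, 44.7% against 46.1% of all rows. The smallest p belonged to a pair of EEF1D rows. EEF1D-201 was listed at 0 in all SNHG10 libraries and at 4.52, 3.91 and 3.61 FPKM in the LacZ libraries (adjusted p = 0.132). EEF1D-241 was the converse, at 8.34, 4.34 and 4.45 FPKM with SNHG10 probes and 0 in all LacZ libraries (adjusted p = 0.133). Both were minor rows: the other rows of EEF1D summed to 108, 90.6 and 105 FPKM against 89.2, 101 and 61.1 FPKM once EEF1D-201 was set aside. EIF1AD-207 was likewise listed at 0 in all SNHG10 libraries and at 3.73, 12.3 and 3.16 FPKM with LacZ probes (adjusted p = 0.264).

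For the 10 rows with the smallest p, the share of the gene's sum taken by the row was also compared. Since the rows were chosen for a small p in the same libraries, these shares are not independent of it. For PABPC1-219 the level was 43.6, 19.2 and 79.2 FPKM with SNHG10 probes and 12.7, 2.92 and 1.597 FPKM with LacZ probes (adjusted p = 0.397). It made up 23.3%, 7.66% and 29.9% of PABPC1 against 5.50%, 1.13% and 0.71%, without overlap. EIF4A2-201 was at 30.3, 15.8 and 14.7 FPKM against 11.04, 10.1 and 3.98 FPKM (adjusted p = 0.842), or 56.2%, 64.8% and 60.8% of EIF4A2 against 37.7%, 51.5% and 27.3%. EEF1A2-202 was at 2.36, 2.16 and 2.36 FPKM against 36.6, 3.31 and 18.1 FPKM (adjusted p = 0.825), and LacZ replicate 2 lay close to the SNHG10 libraries. EEF1E1-201 was at 28.1, 16.1 and 20.6 FPKM against 6.74, 11.3 and 6.73 FPKM (adjusted p = 0.390), the same direction as its gene, but its share of EEF1E1 overlapped between the sets. The two-sided exact permutation p of the share was 0.1, the smallest possible, for 7 of the 10 rows and larger for the other 3 (EEF1E1-201, EEF1AKMT3-201 and EIF2B3-201).

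**Figure D5:**
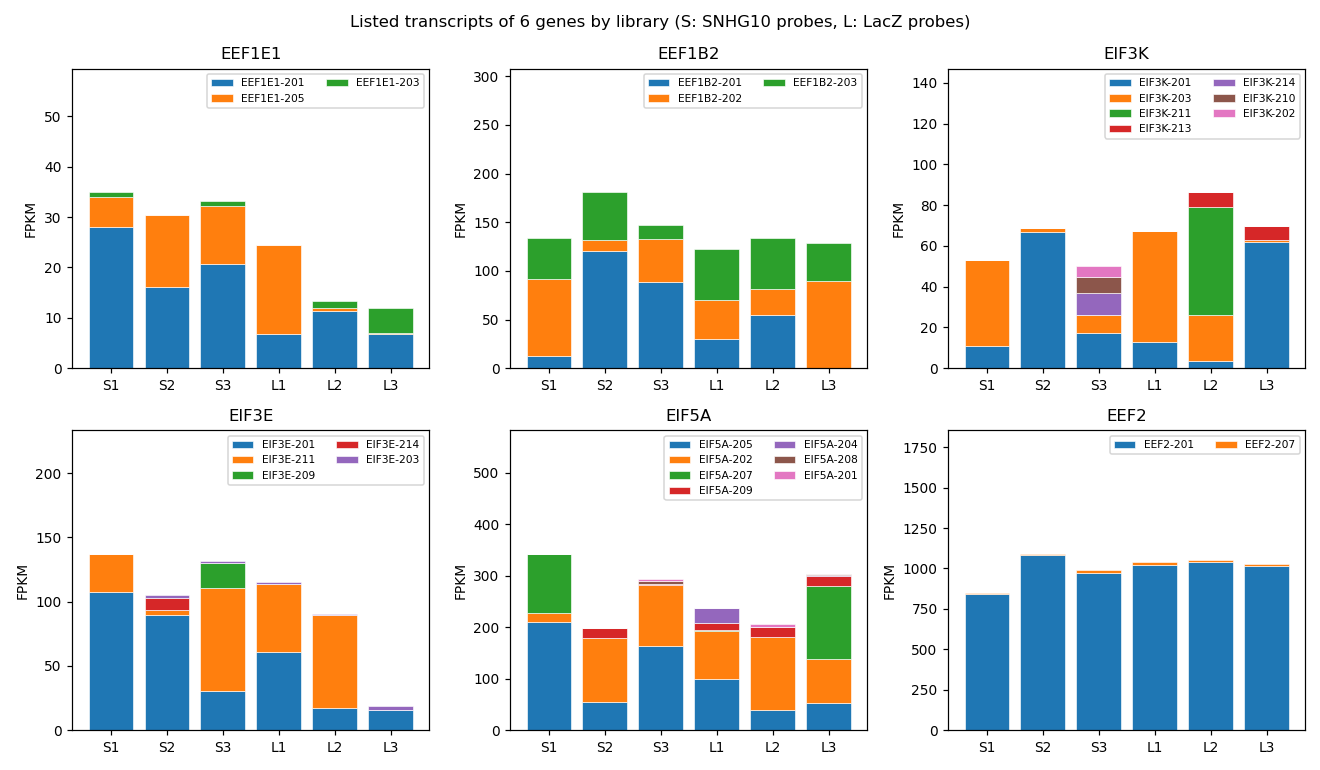
Stacked bars of transcript levels (FPKM, from 0) in each library for 6 factors, S for SNHG10 and L for LacZ probes; each colour is a transcript row. Colours exchange the lead within a probe set in EEF1B2, EIF3K, EIF3E and EIF5A, whereas EEF2 is almost wholly EEF2-201 in every library.

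Other genes that act on translation were read from lists made by function. The lists covered ribosome recycling and rescue, binding of the poly(A) tail, cap and mRNA, the stress response, mTOR signalling and modifying enzymes. Of 51 listed and tested, 0 passed in either direction, the smallest adjusted p was 0.763, and 4 had an unadjusted p under 0.05 (5.42% of all genes did). The sets did not overlap for 1 higher and 5 lower genes of the 51 (4.22% and 7.21% of all genes). HBS1L, a rescue factor for stalled ribosomes, was at 3.28, 3.35 and 3.22 FPKM with SNHG10 probes and 13.1, 12.4 and 6.77 FPKM with LacZ probes. DDIT3 (CHOP), a stress-induced transcription factor, was at 13.2, 18.0 and 13.9 FPKM against 19.9, 28.5 and 21.0 FPKM. DPH7, an enzyme of the diphthamide modification of eEF2, was at 5.03, 9.60 and 5.82 FPKM against 1.95, 2.74 and 2.31 FPKM, and its libraries did not overlap either. The fourth was IMPACT, an inhibitor of GCN2, at 0, 0 and 3.52 FPKM against 2.65, 3.28 and 8.64 FPKM. The median log2 difference over the 51 was -0.12, with 18 positive and 33 negative, where 43.3% of all genes were positive.

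The libraries were alike in total, 268794 to 272909 FPKM with SNHG10 probes and 271354 to 277118 with LacZ probes. As a check of the label, only 2 of 9 hepatocyte markers sought were listed, SERPINA1 and CPS1, at no more than 1.53 FPKM, so the defining hepatocyte genes read here were at or near 0. Of 5 epithelial markers sought 3 were listed, the keratins KRT8, KRT18 and KRT19, whereas EPCAM and CDH1 had no row. The keratins summed to 1818 to 2070 FPKM with SNHG10 probes and 2007 to 2116 with LacZ probes. Listed endothelial markers (3 of 8) summed to 42.4 to 51.2 against 46.4 to 61.8 FPKM, mostly ENG (30.7 to 41.8 FPKM over all libraries). PECAM1, CDH5, KDR, VWF and TEK had no row. Leukocyte markers (2 of 5) summed to 36.8 to 56.1 against 43.1 to 56.5 FPKM, mostly CD68 (35.3 to 54.4 FPKM). CD14 reached no more than 2.69 FPKM, and PTPRC, LYZ and CD3E had no row. Fibroblast and muscle markers (4 of 5) summed to 36.8 to 55.8 against 47.5 to 63.2 FPKM. Over all genes tested, 7.21% were lower in every SNHG10 library. So were 2 of the tested markers (3 endothelial, 3 epithelial, 2 leukocyte and 4 fibroblast and muscle), without passing the test. The hepatocyte gene CPS1, too low to test, was also lower in each, at 0.626, 0.505 and 0.796 FPKM against 0.883, 1.25 and 1.53 FPKM. The 2 tested markers that were lower in every SNHG10 library were EGFL7 and KRT8. EGFL7, an endothelial gene, was at 8.30, 7.45 and 8.18 FPKM against 26.0, 18.8 and 14.03 FPKM (adjusted p = 0.778), and KRT8 at 549, 544 and 465 FPKM against 601, 589 and 633 FPKM (adjusted p = 0.885). The part of these markers in the results was not tested. SNHG10 itself was not analysed here.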

How the data were processed

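Each library has a deposited table of FPKM, 1 value per transcript, per the file headers. The submitters' processing notes name Bowtie2 2.1.0 and the build hg19; which program turned reads into FPKM is not stated in the sources used here. Each library's probe set and replicate number came from its title. Transcript values were summed per gene symbol. A gene, or a single transcript row, entered the test where 3 or more libraries reached 1 FPKM. The test was limma 3.58.1 with trend (R 4.3.3) on log2(FPKM + 1), Benjamini-Hochberg adjusted over all genes or all rows, with a threshold of 0.05; fold changes on this scale understate those of low genes. Single values were compared by two-sided exact permutation over 20 assignments. The members, role groups and gene lists were chosen with earlier results of these data known. Statistics are given for the gene with the smallest p and the most abundant gene of each role, and for any with an unadjusted p under 0.05. They are also given for most of the 10 transcript rows with the smallest p, but not for EIF3L-204, EEF1AKMT3-201 and EIF2B3-201. The log2 differences of those rows, SNHG10 minus LacZ, were 1.36, -1.88 and -1.96 in that order. EIF3E and EEF1G were added after their values were seen, and statistics of EEF1B2, which met none of these rules, are given too. In simulated data with 200 changed genes of 10304, the gene fit recovered 14.6% of 2-fold, 47.4% of 4-fold, 75.2% of 8-fold and 86.2% of 16-fold changes. A median of 8.5 unchanged genes per run was also called. The changed genes were drawn from all genes tested and only raised, so these rates are not specific to the factors. Depth is unknown. Alternatives covered scaling, filter, pseudocount, variance model, a replicate block, the highest transcript in place of the sum, and each library left out.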

Additional observations from a re-analysis of the deposited data

How the results depend on the processing

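No member gene passed under any alternative run; the smallest adjusted p was 0.251, for EIF1AD with its highest transcript in place of the sum. Members with an unadjusted limma p under 0.05 numbered 1 in the main fit, where 5.42% of all genes reached it. They numbered 3 with the replicate block, 2 to 4 with a library left out and 5 with the highest transcript. The share of all genes under those alternatives was not counted, so the change in number is not read as particular to the factors. EEF1E1 kept its direction under every alternative, with adjusted limma p values from 0.472 to 0.922. Samples of the 2 sets share replicate numbers only: the deviations of same-numbered samples were correlated at 0.02, 0.01 and 0.02. Differently numbered samples gave -0.024 to 0.0085. Each sample correlated best with its own number, but all these values were near 0, and whether the numbers mark pairs was not settled. With the replicate block, 0 genes and 0 transcript rows passed, against 0 genes and 8 higher and 7 lower rows without it. Over all genes, the higher calls ranged from 0 to 1 with single libraries left out (1 without LacZ replicate 2) and the lower calls from 0 to 1 (1 without SNHG10 replicate 1). Over all transcript rows, leaving out any 1 library gave 0 higher and 0 lower calls. No filter gave 3 higher and 3 lower, the filter at 5 FPKM 3 and 3, pseudocount 0.1 gave 3 and 2, pseudocount 5 gave 3 and 2, and limma without trend 26 and 27. That last setting let 1 member row pass, EEF1D-201 (adjusted p = 0.0407), which elsewhere ranged up to 0.737. The cause of these differences was not tested.

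The log2 differences of 9 named genes changed sign under some setting, none of them past the threshold. With the highest transcript in place of the sum they were 0.011 for EIF2D, 0.19 for EIF4B, -0.034 for EEF1A1 and 0.32 for EIF6. EIF6 was also positive under median-ratio scaling (0.039) and quantile normalization (0.014). With single libraries left out the ranges were -0.81 to 0.20 for EIF1, -0.019 to 0.21 for EIF2AK4, -0.52 to 0.49 for EIF3F, -0.0085 to 0.057 for EEF1A1, -0.76 to 0.046 for EIF1AD, -0.13 to 0.068 for EIF6 and -0.58 to 0.087 for EEF1G. Over the same omissions the difference in share for PABPC1-219 ran from 13.0 to 24.2 percentage points, for EEF1A2-202 from -39.1 to -13.7 (without LacZ replicate 1), and for EIF1AD-207 from -40.1 to -15.3 (without LacZ replicate 2). That for EEF1E1-201 ran from -5.001 to 23.4 and changed sign without LacZ replicate 1. Precision is limited by 3 libraries per set, and depth is unknown, so values near the filter of 1 FPKM are the least certain.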
